A study of Capra hircus with 40 samples.

Results

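The WNT ligands, Frizzled (FZD) receptors and secreted modulators described here are 40 genes, namely all rows of a goat read-count table whose NCBI gene number belongs to a protein-coding gene with a RefSeq symbol of WNT, FZD, SFRP, DKK or RSPO followed by a number, out of 30049 rows in all. They comprise 19 WNT, 10 FZD, 4 SFRP, 3 DKK and 4 RSPO genes. The study sequenced total RNA from ovary and uterus of female goats (Capra hircus) of 1 farm kept under shared conditions, at day 1 and at months 2, 4 and 6 after birth. There were 5 individuals for each organ and age, 8 groups and 40 libraries. The labels used here name no treatment, genotype, breed or cycle stage. Each organ was taken as whole tissue, so fewer cells of a type and less RNA per cell cannot be told apart in any level below.

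WNT proteins are secreted lipid-modified ligands that bind FZD receptors on nearby cells. Some signals stabilise beta-catenin and switch on target genes, and others reorganise the cytoskeleton. Secreted frizzled-related proteins (SFRP) bind WNT ligands outside the cell, Dickkopf proteins (DKK) act mostly on the LRP coreceptors, and R-spondins (RSPO) bind LGR receptors and keep Frizzled proteins at the cell surface. In mice, WNT ligands are needed to form the oviduct, uterus and uterine glands, and WNT4 and R-spondin 1 are needed for ovarian development.

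Each library held between 31.9 and 62.7 M counts (median 51.3 M), and levels are given as counts per M counts of the library (CPM). A floor of 3 counts corresponded to 0.0478 to 0.0940 CPM, for counting error only. Against lists of tissue markers, 2 libraries went against their labels. Ovary library 3 at day 1 held a summed 3025 CPM of 3 fat markers, against 0.538 to 2.81 CPM in the other ovary libraries, and 2.65 CPM of 6 ovary markers, against 32.7 to 695 CPM. It was also the highest ovary library for urothelium (629 CPM) and squamous epithelium markers (94.6 CPM), where the other ovaries held 4.1 to 553 and 0.225 to 15.8 CPM. The same held for uterus (59.2 CPM), smooth muscle (2483 CPM) and elastic tissue markers (595 CPM). There the other ovaries held 0 to 19.8, 256 to 1288 and 70.1 to 297 CPM. The part of any of these tissues in its values was not tested. Uterus library 5 at month 4 held 9947 CPM of 2 elastic tissue markers, against 73.2 to 277 CPM in the other uterus libraries, and 4.06 CPM of the uterus markers, against 52.3 to 239 CPM. It was also the highest uterus library for stroma (8752 CPM), smooth muscle (4321 CPM) and endothelium markers (881 CPM). There the other uterus libraries held 1937 to 4333, 595 to 2911 and 139 to 348 CPM. Its epithelium markers, at 58.3 CPM, were below the 453 to 2092 CPM of the others. The part of these tissues in its values was not tested. Ovary library 5 at month 4 held 12695 CPM of 3 luteal markers, against 39 to 414 CPM in the other ovary libraries. Summed markers of oviduct and ciliated cells, of which 3 of 4 are in the table, were above 100 CPM in 9 libraries, namely ovary library 1 at day 1, 2 at month 2, 3 and 4 at month 4 and 1 and 4 at month 6, and uterus libraries 3 and 5 at day 1 and 3 at month 6.

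Of the 40 genes, 27 had at least 1 count in every library. WNT8A had 0 counts in all 40 libraries, which allows a level of up to 0.00145 CPM over the pooled total, and WNT1 had 8 counts, all in uterus library 2 at month 4. These were picked out after their values were seen. WNT8B was at 0 in 28 libraries and WNT9B in 23. WNT10B, WNT3A and RSPO4 were detected in more libraries, but no group mean of these low genes passed 0.602 ± 0.825 CPM (SD, n = 5, WNT10B in the ovary at day 1). That mean rested on library 3, at 2.05 CPM, and was 0.24 CPM without it. After the filter on low counts, 36 members were tested within the ovary, 35 within the uterus and 37 between the organs, and 3 entered no test. A filter of this kind keeps a gene for its high group, so the members tested are not all members. Several ligand genes lie next to each other in the RefSeq gene order, namely WNT9B with WNT3, WNT10A with WNT6, WNT1 with WNT10B and WNT9A with WNT3A.

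Ovary and uterus were compared at each age with edgeR's quasi-likelihood test over all 20518 genes tested. A gene is called here when its Benjamini-Hochberg adjusted p over all genes is under 0.05 and its absolute log2 fold change is at least 1. Most fold changes are printed with a standard error worked back from the test. It is the absolute log2 fold change over the square root of the test's F statistic, and so approximate. Positive values stand for the ovary. At day 1, 6 of 37 members were called higher in the ovary, where 10.3% of all genes were, and 9 were called higher in the uterus, where 3.94% of all genes were. At month 2 the counts were 3 higher in the ovary (9.79% of all genes) and 11 higher in the uterus (6.5%). At month 4 they were 2 (6.92%) and 9 (4.22%), and at month 6 they were 3 (6.05%) and 8 (4.06%). The median log2 fold change over the tested members was -0.43, -0.44, -0.41 and -0.31 at day 1 and months 2, 4 and 6, and over all genes it was 0.07, -0.01, -0.01 and 0.00.

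Calls were made at all 4 ages for 9 members. WNT2, WNT16, WNT5B, FZD10, FZD2, DKK2 and DKK3 were higher in the uterus each time, 7 of 37 members against 1.01% of all genes, and FZD9 and RSPO2 were higher in the ovary each time, 2 of 37 against 3.44%. A further 10 members were called at 1 to 3 ages and 18 at none. Leaving out both libraries that went against their labels gave 15, 17, 14 and 13 calls at day 1 and months 2, 4 and 6, in place of 15, 14, 11 and 11, where 17.6%, 18.1%, 13.1% and 11.8% of all genes were called in place of 14.2%, 16.3%, 11.1% and 10.1%. Leaving out the 9 libraries rich in oviduct and ciliated cell markers, an alternative added after the data were seen, gave 14, 13, 7 and 14 (9.89%, 16.3%, 8.38% and 10.7% of all genes). In a fit of the month 4 libraries alone, which called 3.55% of all genes, DKK2, FZD9, RSPO2, WNT5B, FZD10 and WNT16 of these 9 lost their month 4 calls (adjusted p from 0.0505 to 0.162), and in a fit of the month 6 libraries alone FZD9 and FZD2 lost theirs (adjusted p = 0.0662 and 0.0973).

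**Figure D1:**
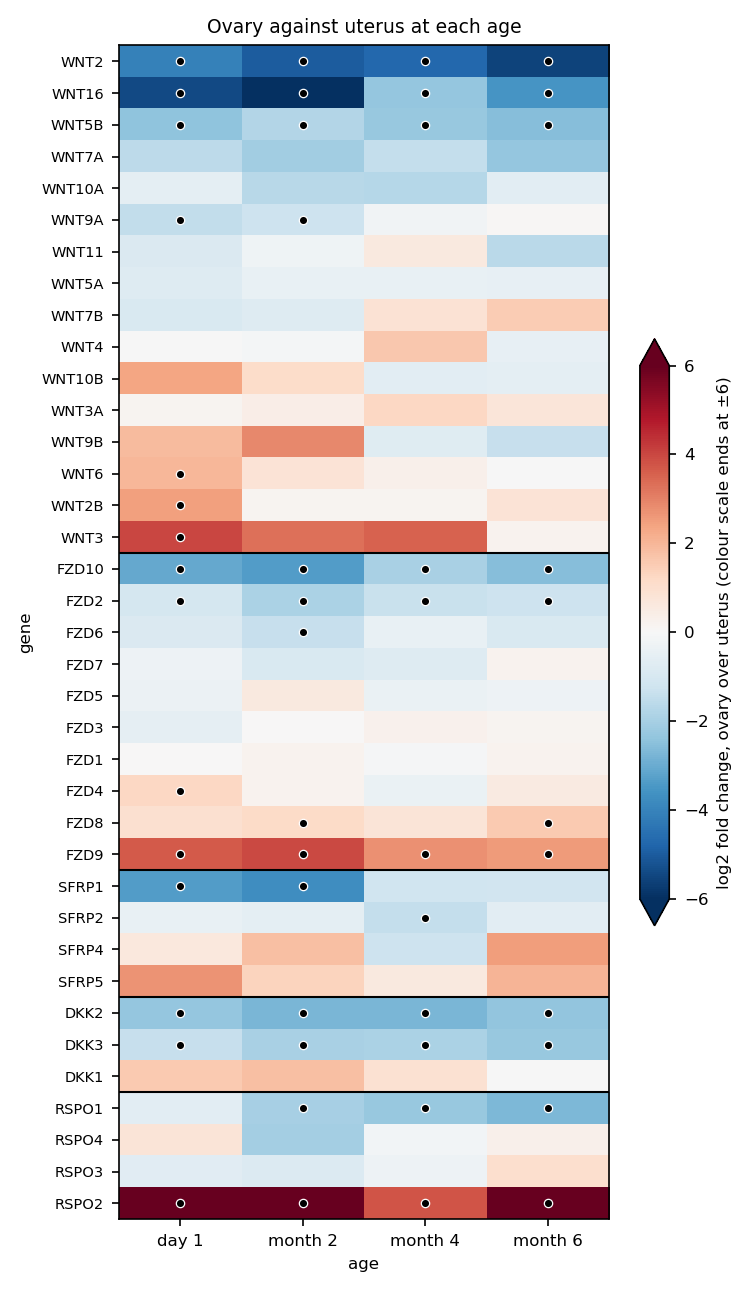
Log2 fold change of the ovary over the uterus for the 37 members tested (vertical axis) at each of the 4 ages (horizontal axis), with a colour scale that ends at 6 in either direction and a black dot for each call. WNT2, WNT16, WNT5B, FZD10, FZD2, DKK2 and DKK3 carry a dot for the uterus at all 4 ages, and FZD9 and RSPO2 carry a dot for the ovary at all 4.

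Among the ligands, WNT2, which signals through beta-catenin in mouse lung and vessel development, was higher in the uterus at every age. At day 1 its level was 32, 23.8, 12.4, 8.96 and 9.24 CPM in uterus libraries 1 to 5 and 1.05, 0.805, 2.56, 0.0742 and 0.406 CPM in ovary libraries 1 to 5. The month 6 values were 39.6, 139.7, 84.4, 57.5 and 54.3 CPM in the uterus and 2.37, 0.807, 0.175, 4.03 and 0.819 CPM in the ovary. The organs did not overlap at day 1, month 2 or month 6, and at month 4 they overlapped through uterus library 5, at 2 CPM, while the other uterus libraries lay at 21.9 CPM or above. The log2 fold change was -4.04 ± 0.84 at day 1 (adjusted p = 0.000793), -5.00 ± 0.88 at month 2 (adjusted p = 0.00014), -4.71 ± 0.86 at month 4 (adjusted p = 0.000492) and -5.57 ± 0.90 at month 6 (adjusted p = 8.65e-05). Every alternative run kept these 4 calls.

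WNT16, a ligand best known from bone, was also higher in the uterus. Its level at day 1 was 82.2, 73.1, 19.8, 72.5 and 18.4 CPM in the uterus and 1.24, 3.93, 0.841, 0.0742 and 0.186 CPM in the ovary. At month 2 it was 54.6, 36.6, 48.4, 31.4 and 59.9 CPM in the uterus and 0.204, 1, 0.133, 0.8 and 0.755 CPM in the ovary. The organs did not overlap at either age, with log2 fold changes of -5.43 ± 0.88 (adjusted p = 6.06e-05) and -6.28 ± 0.92 (adjusted p = 2.1e-05), and both calls stood in every alternative. At month 4 the mean was 10.8 ± 6.1 CPM in the uterus and 2.23 ± 1.65 CPM in the ovary (SD, n = 5 each), and at month 6 11.4 ± 12 and 1.03 ± 0.504 CPM. The organs overlapped at both later ages, where the log2 fold change was -2.32 ± 0.77 (adjusted p = 0.0387) and -3.52 ± 0.81 (adjusted p = 0.00347). The call at month 4 was lost in 13 of 19 alternatives, among them limma-voom, no count filter, the month 4 libraries alone, the sets without the oviduct-rich or the luteal libraries, and without ovary library 1, 2, 4 or 5 or uterus library 1, 3 or 4 of that age (adjusted p up to 0.0989), and that at month 6 with limma-voom (adjusted p = 0.0895).

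WNT5B, a ligand that acts largely without beta-catenin, had a mean of 11.3 ± 4.98 CPM in the uterus and 2.06 ± 1.7 CPM in the ovary at day 1 (SD, n = 5 each). At month 6 the uterus libraries held 5.36, 19.4, 7.4, 20.6 and 9.72 CPM and the ovary libraries 1.6, 1.84, 3.05, 2.25 and 2.32 CPM. No uterus library fell into the ovary range at day 1, month 2 or month 6, and at month 4 uterus library 5 did, at 1.08 CPM. Log2 fold changes from day 1 to month 6 were -2.43 ± 0.52, -1.78 ± 0.50, -2.26 ± 0.51 and -2.54 ± 0.52, with adjusted p between 0.000941 and 0.0109. WNT9A, a ligand needed for joint formation in mice, was higher in the uterus at day 1, by -1.45 ± 0.39 (adjusted p = 0.00802), and at month 2, by -1.26 ± 0.39 (adjusted p = 0.0203). The day 1 call was lost in a fit of day 1 libraries alone (adjusted p = 0.0781) and the month 2 call without ovary library 3 or 5 (adjusted p up to 0.069). Its uterus mean was 3.01 ± 0.388 CPM at month 2 and 1.71 ± 0.77 CPM at month 4 (SD, n = 5 each), a difference that was not called (log2 fold change -0.78 ± 0.35, adjusted p = 0.724), and at months 4 and 6 the organs were not called apart.

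**Figure D2:**
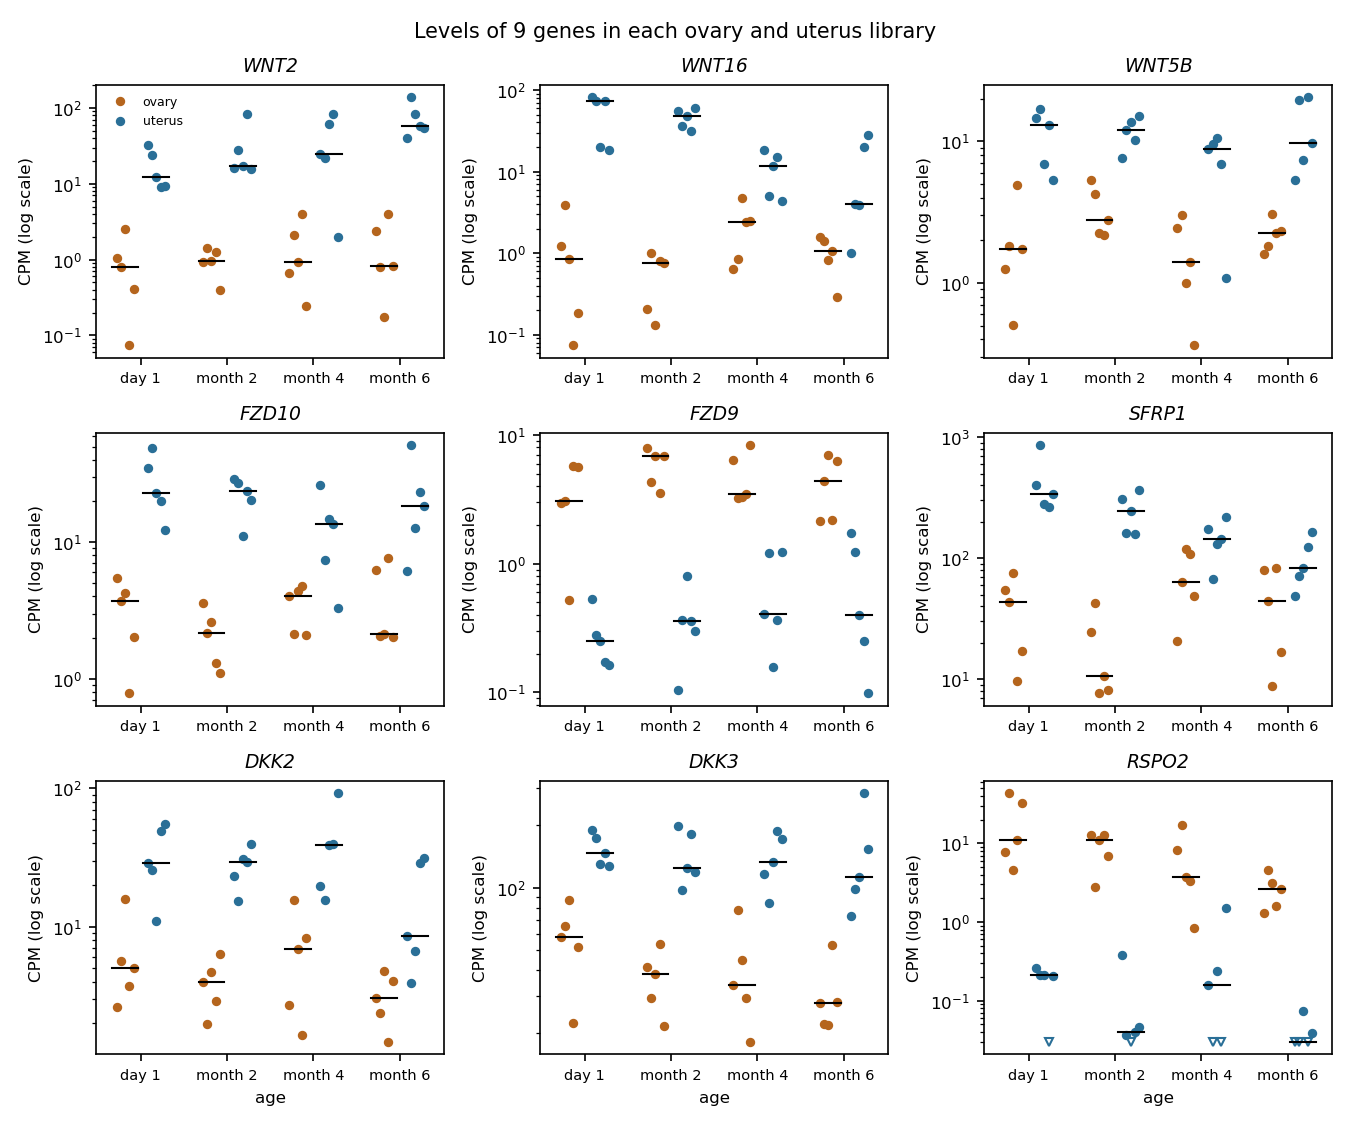
Level in CPM, on a log axis, of WNT2, WNT16, WNT5B, FZD10, FZD9, SFRP1, DKK2, DKK3 and RSPO2 in each ovary and uterus library at the 4 ages, with a line at the median of each group and open triangles at the bottom for libraries at 0 counts. The uterus points of WNT2 and DKK3 sit above the ovary points apart from WNT2 in uterus library 5 at month 4, and RSPO2 shows the reverse, apart from ovary library 5 and uterus library 5 at month 4, with 7 uterus libraries at 0.

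In the ovary, 3 ligands were called higher than in the uterus at day 1 and were not called at the later ages. WNT2B, a close relative of WNT2, stood at 26.8, 21.9, 19.2, 12.4 and 22 CPM in the ovary and 1.32, 1.79, 3.82, 4.91 and 6.28 CPM in the uterus. WNT6, which supports stromal cell proliferation at implantation in mice, stood at 13.3, 13.3, 1.16, 3.13 and 8.31 CPM in the ovary and 1.64, 1.84, 2.47, 1.97 and 1.55 CPM in the uterus. WNT2B did not overlap between the organs, while WNT6 overlapped through ovary library 3, the library rich in fat markers. WNT2B differed by 2.48 ± 0.45 on the log2 scale (adjusted p = 0.000211), a call kept in every alternative, and WNT6 by 2.00 ± 0.51 (adjusted p = 0.00465). The WNT6 call was lost with limma-voom (adjusted p = 0.0784), in a fit of day 1 libraries alone (0.0565) and without the libraries rich in oviduct markers (0.0806).

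By month 6, WNT6 averaged 9.68 ± 3.22 CPM in the ovary and 9.53 ± 2.99 CPM in the uterus (SD, n = 5 each), with a log2 fold change of -0.02 ± 0.49 (adjusted p = 0.991). WNT3, a ligand needed for gastrulation in mice, was near the detection floor in the uterus at day 1, at 0, 0.0526, 0.0533, 0.208 and 0.163 CPM, and at 2.96, 2.77, 0, 0.297 and 2.32 CPM in the ovary. Its 5 ovary libraries ran from 0 in library 3 to almost 3 CPM, and the fitted difference of 4.03 ± 1.36 (adjusted p = 0.0355) was lost when any of ovary libraries 1, 2 and 5 or uterus libraries 1, 2, 3 and 5 was left out (adjusted p up to 0.0802), with limma-voom (0.2), in a fit of day 1 libraries alone (0.0848) and without the libraries rich in oviduct markers (0.178). Its neighbour WNT9B had no group mean above 0.193 ± 0.107 CPM (SD, n = 5, ovary at day 1).

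WNT7A, an epithelial ligand of the mouse uterus that is needed for normal Mullerian duct and gland development, averaged 16.8 ± 12 CPM in the uterus and 5.72 ± 5.46 CPM in the ovary at day 1 (SD, n = 5 each). Uterus libraries 1 to 5 held 21.4, 27.6, 4.44, 27.1 and 3.49 CPM at that age, so libraries 3 and 5 were low and the other three high. The same libraries 3 and 5 had the highest summed epithelium markers of the day 1 uterus, 2092 and 1714 CPM against 879 to 1068 CPM in the others. They also held 340.2 and 409 CPM of oviduct and ciliated cell markers, where the others held 4.32 to 24.2 CPM. Of 2 mesothelium markers only 1, MSLN, is in the table, and it stood at 509.9 and 303 CPM, where the others held 9.13 to 44.7 CPM. The part of these tissues in the low values was not tested. At month 6 the uterus values were 0.989, 0.563, 5.55, 7.72 and 14.5 CPM and the ovary values 0.887, 1.88, 1.01, 0.644 and 1.64 CPM, which overlapped through uterus libraries 1 and 2. WNT7A was not called between the organs at any age (log2 fold change -1.57 ± 0.97, -2.07 ± 0.98, -1.43 ± 0.97 and -2.31 ± 1.00, adjusted p from 0.136 to 0.334). Without the 2 libraries that went against their labels it was called higher in the uterus at month 2 (-2.13 ± 0.79, adjusted p = 0.0456) and month 6 (-2.33 ± 0.80, adjusted p = 0.0451).

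WNT5A, a mesenchymal ligand needed for outgrowth of the posterior reproductive tract in mice, averaged 46.0 CPM over the 20 ovary libraries and 65.6 CPM over the 20 uterus libraries. Its group means ran from 41.5 ± 17.4 CPM in the ovary at day 1 to 72.7 ± 33.5 CPM in the uterus at month 2 (SD, n = 5 each). At day 1 the uterus values were 107, 130.3, 13.4, 92.7 and 15.5 CPM and the ovary values 63.1, 55.5, 20.6, 33.5 and 34.7 CPM. Uterus libraries 3 and 5 were again the low pair, below every ovary library, and libraries 1, 2 and 4 were above every ovary library. The difference at day 1 was -0.78 ± 0.46 on the log2 scale (adjusted p = 0.279), and without the 9 libraries rich in oviduct and ciliated cell markers, which include this pair, it was -1.60 ± 0.45 (adjusted p = 0.0237), a call. WNT5A was not called at the later ages (-0.44 ± 0.46, -0.45 ± 0.46 and -0.47 ± 0.46, adjusted p from 0.552 to 0.612).

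**Figure D3:**
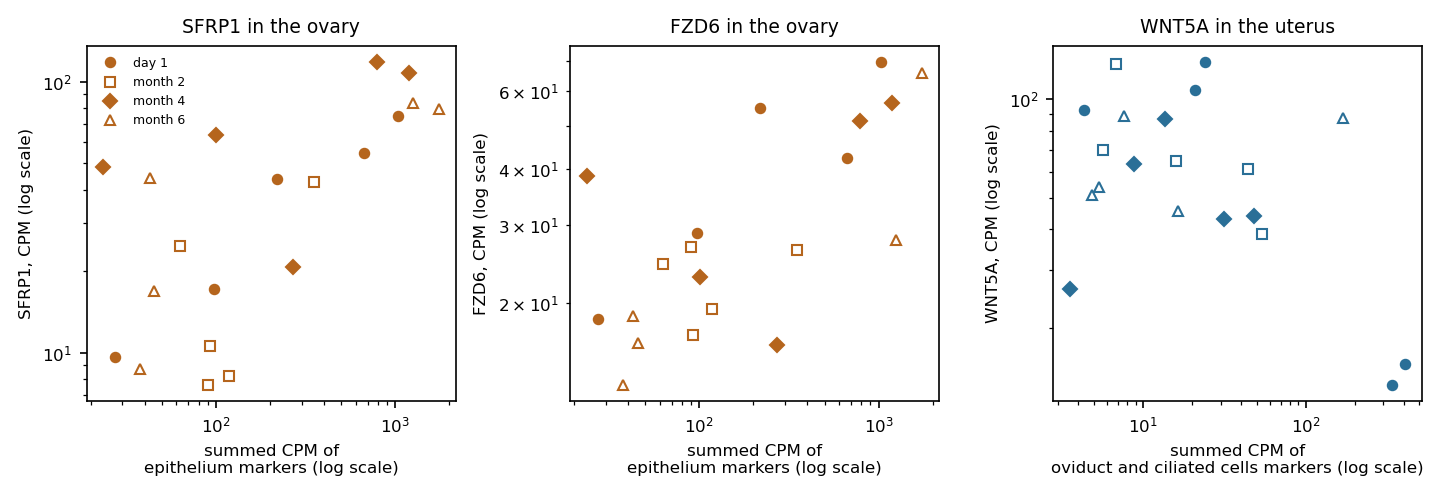
SFRP1 and FZD6 in the ovary against the summed epithelium markers of each library, and WNT5A in the uterus against the summed oviduct and ciliated cell markers, all in CPM on log axes, with filled points for day 1 or month 4 and open points for months 2 and 6. Uterus libraries 3 and 5 at day 1, at 340.2 and 409 CPM of oviduct and ciliated cell markers, hold 13.4 and 15.5 CPM of WNT5A.

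The other ligands were called in no comparison. WNT4, which is needed for Mullerian duct formation and ovarian development in mice, ran from 0.473 to 41.5 CPM over all libraries, and its highest value was in uterus library 2 at month 6. WNT11, which guides cell movements and kidney branching, held 3.25, 62.6, 2.39, 4.04 and 2.2 CPM in the uterus at month 6, with library 2 far above the rest and a group mean of 14.9 ± 26.7 CPM (SD, n = 5). Without that library the organ difference at month 6 turned from -1.64 ± 0.66 (adjusted p = 0.108) to 0.69 ± 0.46 (adjusted p = 0.441). WNT10A, a ligand of skin and teeth that lies beside WNT6, averaged 4.25 ± 2.32 CPM in the uterus at day 1 and 1.73 ± 1.21 CPM at month 6 (SD, n = 5 each). WNT7B, an epithelial ligand of lung and kidney, stayed at or below 4 CPM, the value of ovary library 4 at month 6. Its 3 highest ovary values, in that library and in libraries 3 and 4 at month 4, came from libraries with 299, 319 and 458 CPM of oviduct and ciliated cell markers, whose part was not tested.

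Among the receptors, FZD10 was the receptor with the largest fitted excess in the uterus at all 4 ages. Its level at day 1 was 34.7, 49.4, 23.1, 20.1 and 12.3 CPM in the uterus and 5.45, 3.69, 4.28, 0.779 and 2.03 CPM in the ovary. At month 6 it was 6.17, 51.4, 12.6, 23.5 and 18.5 CPM in the uterus and 6.23, 2.06, 2.13, 7.71 and 2.03 CPM in the ovary. The organs did not overlap at day 1 or month 2, and at month 6 uterus library 1 fell below the 2 highest ovary libraries, 1 and 4. The log2 fold change was -3.07 ± 0.55, -3.37 ± 0.56, -1.95 ± 0.53 and -2.54 ± 0.54 from day 1 to month 6, with adjusted p between 7.72e-05 and 0.0119. The month 4 call was also lost with limma-voom (adjusted p = 0.0785) and without uterus library 1 of that age (adjusted p = 0.0602).

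FZD2, a receptor used by WNT5A in mammalian cells, was higher in the uterus by -1.06 ± 0.35 at day 1, -1.89 ± 0.36 at month 2, -1.32 ± 0.36 at month 4 and -1.23 ± 0.35 at month 6 on the log2 scale, with adjusted p of 0.0325, 0.000341, 0.0119 and 0.019. At month 2 the uterus libraries held 17.2, 33.5, 39.6, 22.1 and 31.1 CPM and the ovary libraries 8.57, 7.33, 7.4, 7.58 and 6.7 CPM. The groups were apart at month 2 and at month 4 and overlapped at day 1 and month 6. Only the month 2 call stood in every alternative. The day 1 call was lost in a fit of day 1 libraries alone (adjusted p = 0.146) and without ovary library 4 or 5 or uterus library 1, 2 or 4. The month 4 call was lost without ovary library 4 and without the libraries rich in oviduct markers (adjusted p = 0.0515 and 0.0712). The month 6 call was lost with limma-voom (adjusted p = 0.102), in a fit of month 6 libraries alone, without the libraries rich in oviduct markers (0.085) and without ovary library 3 or uterus library 3.

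FZD6, a receptor that sets planar polarity in mouse skin, was called higher in the uterus at month 2, at 68.2, 59.8, 73.7, 43.8 and 57.8 CPM against 24.4, 26.3, 26.7, 16.9 and 19.4 CPM in the ovary. The groups did not overlap, and the log2 fold change was -1.38 ± 0.36 (adjusted p = 0.00586). The ovary values at month 6 were 66, 18.6, 13, 27.7 and 16.2 CPM, with library 1 far above the rest, and the difference was -0.93 ± 0.36 (adjusted p = 0.0882). Without ovary library 1 it was -1.53 ± 0.33 (adjusted p = 0.00205), a call. That library held 1746 CPM of 5 epithelium markers. Library 4 of that age, at 27.7 CPM of FZD6, held 1249.7 CPM of them, and the rest held 37.6 to 45.2 CPM. The part of epithelium in the FZD6 values was not tested.

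FZD9 and FZD8 were higher in the ovary. FZD9, a receptor known from bone and the hippocampus, stood at 7.86, 4.28, 6.87, 3.56 and 6.81 CPM in the ovary and 0.105, 0.367, 0.796, 0.358 and 0.298 CPM in the uterus at month 2. For month 6 the ovary gave 2.13, 4.4, 6.97, 2.19 and 6.33 CPM and the uterus 1.72, 1.24, 0.402, 0.249 and 0.098 CPM. No uterus library reached an ovary library at months 2, 4 and 6, and at day 1 they overlapped by a narrow margin, through ovary library 3 at 0.526 CPM and uterus library 1 at 0.532 CPM. The log2 fold change was 3.68 ± 0.70 at day 1, 3.97 ± 0.71 at month 2, 2.74 ± 0.67 at month 4 and 2.54 ± 0.66 at month 6, with adjusted p of 0.000333, 0.000168, 0.00589 and 0.00941.

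FZD8 held 8.77, 10.8, 11.1, 9.11 and 15.8 CPM in the ovary and 4.23, 2.63, 4.17, 3.28 and 3.84 CPM in the uterus at month 6, without overlap. It was called at month 2 (1.14 ± 0.34, adjusted p = 0.0154) and month 6 (1.59 ± 0.34, adjusted p = 0.00194). At day 1 its fold change of 0.98 ± 0.34 fell just short of the size threshold (adjusted p = 0.0398). At month 4 it was not called (0.76 ± 0.34, adjusted p = 0.126), with uterus library 5 at 15.9 CPM and the other uterus libraries at 3.48 to 4.26 CPM, and without that library it was (1.66 ± 0.25, adjusted p = 4.45e-05). FZD4, which also binds norrin and is needed for corpus luteum formation in mice, was higher in the ovary at day 1 (49.7, 89.8, 117, 66.4 and 39 CPM against 27.3, 45.3, 28.2, 28.6 and 26.4 CPM). The ovary libraries lay above those of the uterus except for library 5, which was below uterus library 2, and the difference of 1.26 ± 0.40 (adjusted p = 0.0224) was lost without ovary library 3 (0.94 ± 0.40, adjusted p = 0.0917), the library rich in fat markers. It was also lost without ovary library 2, uterus library 1 or the libraries rich in oviduct markers (adjusted p = 0.0523, 0.0521 and 0.111).

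The remaining receptors were called nowhere. FZD1 had ovary means from 72.7 ± 6.87 to 83.9 ± 8.37 CPM and uterus means from 65.8 ± 30.0 to 79.5 ± 35.2 CPM (SD, n = 5 each). FZD7 reached -0.90 on the log2 scale at month 2 (adjusted p = 0.0462), under the size threshold. FZD3, known for axon guidance, ran from 7.56 to 101 CPM over all libraries, with its lowest values in ovary and uterus library 5 at month 4. FZD5, needed for yolk sac vessels in mice, ran from 1.86 to 90.8 CPM, and its highest value was ovary library 4 at day 1.

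Among the secreted inhibitors, DKK2 and DKK3 were called higher in the uterus at every age. DKK2, which binds the LRP coreceptors, held 29.1, 25.8, 11.1, 49.2 and 55.3 CPM in the uterus and 2.61, 5.68, 15.8, 3.69 and 5.06 CPM in the ovary at day 1. DKK3, a divergent family member without a settled receptor, held 188, 173, 130.5, 146 and 128 CPM in the uterus and 57.9, 65.5, 87.6, 22.5 and 51.9 CPM in the ovary at the same age. DKK3 did not overlap between the organs at any of the 4 ages, and DKK2 overlapped at day 1 through ovary library 3, at 15.8 CPM, and uterus library 3, at 11.1 CPM. Log2 fold changes of DKK3 ran from -1.38 ± 0.36 at day 1 (adjusted p = 0.00566) through -1.94 ± 0.36 and -1.92 ± 0.36 to -2.29 ± 0.37 at month 6 (adjusted p = 8.48e-05), but the difference in change between the organs was not called (-0.91 ± 0.50, adjusted p = 0.52). Those of DKK2 were -2.30 ± 0.63, -2.72 ± 0.64, -2.73 ± 0.64 and -2.38 ± 0.64, with adjusted p between 0.00263 and 0.0111. At month 6 the DKK2 call was lost with limma-voom (adjusted p = 0.098), and there uterus libraries 1, 2 and 3 were at 8.53, 3.92 and 6.69 CPM while libraries 4 and 5 were at 29 and 31.5 CPM.

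SFRP1, which binds WNT ligands outside the cell, was called higher in the uterus at day 1 (-3.37 ± 0.61, adjusted p = 0.000176) and month 2 (-3.73 ± 0.62, adjusted p = 7.58e-05). At day 1 its uterus values were 403, 860.0, 279, 267 and 338 CPM and its ovary values 54.4, 43.8, 74.9, 9.62 and 17.2 CPM. The groups did not overlap at either age. Month 6 values were 48.5, 70.7, 82.7, 124 and 166 CPM in the uterus and 79.5, 44.1, 8.7, 83.7 and 16.9 CPM in the ovary, so the groups overlapped, and the difference was -1.14 ± 0.56 (adjusted p = 0.206). Within the ovary at month 6, libraries 1 and 4 were the highest for SFRP1 and also for the epithelium markers (1746 and 1249.7 CPM, against 37.6 to 45.2 CPM in the other three). At month 4, ovary libraries 3 and 4, at 119 and 108 CPM, had 791 and 1194 CPM of the same markers, against 23.5 to 270.2 CPM in the other three. Without the libraries rich in oviduct and ciliated cell markers, SFRP1 was called higher in the uterus at month 6 (-2.20 ± 0.68, adjusted p = 0.0336). The part of epithelium or oviduct tissue in these values was not tested.

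SFRP2, another WNT-binding protein, was called higher in the uterus at month 4, by -1.44 ± 0.47 on the log2 scale (adjusted p = 0.0343), from 107, 285, 237, 190.2 and 64.1 CPM in the uterus and 78.6, 126, 108, 32.9 and 12.3 CPM in the ovary. The groups overlapped, and the call was lost without any of ovary libraries 1, 4 and 5 or uterus libraries 2, 3 and 4 (adjusted p up to 0.108), with no count filter (0.0508), in a fit of month 4 libraries alone (0.196) and without the libraries rich in oviduct markers (0.147). SFRP4, known from luteal cells in rodents, was not called between the organs at any age. Its mean in the uterus at month 4, 16.4 ± 33.2 CPM (SD, n = 5), rested on library 5, at 75.7 CPM. At month 6 the ovary held 9.27, 20.7, 35, 5.43 and 3.1 CPM and the uterus 5.28, 2.23, 2.23, 1.28 and 1.47 CPM, a difference of 2.52 ± 0.90 (adjusted p = 0.0647) that became 2.51 ± 0.55 (adjusted p = 0.00144), a call, without both libraries that went against their labels. SFRP5 was at most 9.62 CPM, in ovary library 3 at day 1, and the value of 8.56 CPM in uterus library 5 at month 4 was the highest of its organ. DKK1, an inhibitor that binds LRP coreceptors, averaged 3.14 ± 2.34 CPM in the ovary and 1.02 ± 0.572 CPM in the uterus at day 1 (SD, n = 5 each) and was not called between the organs.

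The R-spondins were split between the organs. RSPO2, which mouse oocytes make in growing follicles, held 7.86, 43.2, 4.63, 11 and 32.8 CPM in the ovary and 0.256, 0.21, 0.213, 0 and 0.204 CPM in the uterus at day 1. At month 2 it held 12.6, 2.77, 11.1, 12.7 and 6.99 CPM in the ovary and 0.378, 0.0367, 0, 0.0398 and 0.0459 CPM in the uterus. By month 6 the ovary was at 1.29, 4.6, 3.14, 1.59 and 2.63 CPM and the uterus at 0, 0, 0.0731, 0 and 0.0392 CPM. Every ovary library was above every uterus library at these 3 ages, and at month 4 only ovary library 5, the luteal library, at 0.848 CPM, fell below uterus library 5, at 1.49 CPM. Fitted log2 fold changes, whose size depends on how near-zero counts are handled, were 6.77 ± 1.22, 6.52 ± 1.23, 3.79 ± 1.06 and 6.74 ± 1.31, with adjusted p of 0.000187, 0.000299, 0.0153 and 0.000651.

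RSPO1, which is needed for ovarian differentiation in humans and mice, was called higher in the uterus at months 2, 4 and 6, by -1.97 ± 0.72, -2.29 ± 0.73 and -2.72 ± 0.74 on the log2 scale (adjusted p = 0.0493, 0.0314 and 0.0126). At month 6 its uterus values were 112, 26, 25.2, 20.0 and 17.2 CPM and its ovary values 9.79, 5.23, 1.38, 12.4 and 3 CPM. The groups did not overlap, and uterus library 1 stood far above the rest. Without it the difference at month 6 was -1.85 ± 0.70 (adjusted p = 0.0935), which is not a call, and the calls at months 2 and 4 were lost in 14 and 8 of 19 alternatives with adjusted p up to 0.144 and 0.144. RSPO3, needed for vessel development in mice, was not called between the organs at any age and averaged 81.8 ± 39.7 CPM in the ovary and 39.3 ± 23.5 CPM in the uterus at month 6 (SD, n = 5 each).

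Within the uterus, day 1 and month 6 differed for 2 of 35 members, 1 in each direction. Among all 18789 genes tested, 0.66% were called higher and 0.756% lower at month 6. WNT6 rose from 1.64, 1.84, 2.47, 1.97 and 1.55 CPM at day 1 to 10.1, 12.3, 8.71, 11.7 and 4.8 CPM at month 6. Every month 6 library was above every day 1 library, and means at months 2 and 4 were 5.02 ± 1.82 and 5.58 ± 3.32 CPM (SD, n = 5 each). The log2 fold change of month 6 over day 1 was 2.34 ± 0.45 (adjusted p = 0.0176). SFRP1 fell over the same span, from a mean of 429 ± 247 CPM through 248 ± 90.8 and 147 ± 56.5 to 98.4 ± 46.7 CPM (SD, n = 5 each), and its log2 fold change was -2.08 ± 0.40 (adjusted p = 0.019). The lowest day 1 value, 267 CPM, was above the highest month 6 value, 166 CPM. Without the 3 uterus libraries rich in oviduct and ciliated cell markers (3 and 5 of day 1 and 3 of month 6) neither was called (WNT6 2.51 ± 0.60, adjusted p = 0.0658, and SFRP1 -2.20 ± 0.49, adjusted p = 0.0565). That run called 0.516% of all genes in place of 1.42%. The part of the tissue or of the smaller groups in these losses was not tested. In a fit of the day 1 and month 6 groups alone SFRP1 was not called (adjusted p = 0.0617).

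A further 6 members had an unadjusted p under 0.05 without a call, which makes 8 of 35 members under that p, where 17.3% of all genes were. WNT2 averaged 17.3 ± 10.2 CPM at day 1 and 75.1 ± 39.6 CPM at month 6 (SD, n = 5 each), and its month 6 libraries, the lowest at 39.6 CPM, were all above those of day 1. Its log2 fold change of 2.15 ± 0.68 had an adjusted p of 0.11, and of 0.0421 without both libraries that went against their labels. WNT16 stood at 82.2, 73.1, 19.8, 72.5 and 18.4 CPM at day 1 and 0.989, 3.98, 3.87, 19.7 and 28.2 CPM at month 6, with overlap through day 1 libraries 3 and 5 and month 6 libraries 4 and 5 (-2.15 ± 0.68, adjusted p = 0.108, and 0.0147 with DESeq2). RSPO1 differed by 1.86 ± 0.61 (adjusted p = 0.124, and 0.0264 with DESeq2). FZD6, FZD4 and WNT2B differed by -0.58 ± 0.21, 0.98 ± 0.37 and 1.08 ± 0.45 (adjusted p = 0.155, 0.172 and 0.228). WNT7A averaged 16.8 ± 12, 14.9 ± 3.3, 6.2 ± 4.89 and 5.86 ± 5.7 CPM at the 4 ages (SD, n = 5 each), and month 6 against day 1 was not called (-1.44 ± 0.83, adjusted p = 0.383). WNT5A averaged 71.7 ± 54 CPM at day 1 and 65.4 ± 21.1 CPM at month 6. Between day 1 and month 6, DESeq2 called 5 members and 5.03% of all genes, and limma-voom 3 members and 1.25%.

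**Figure D4:**
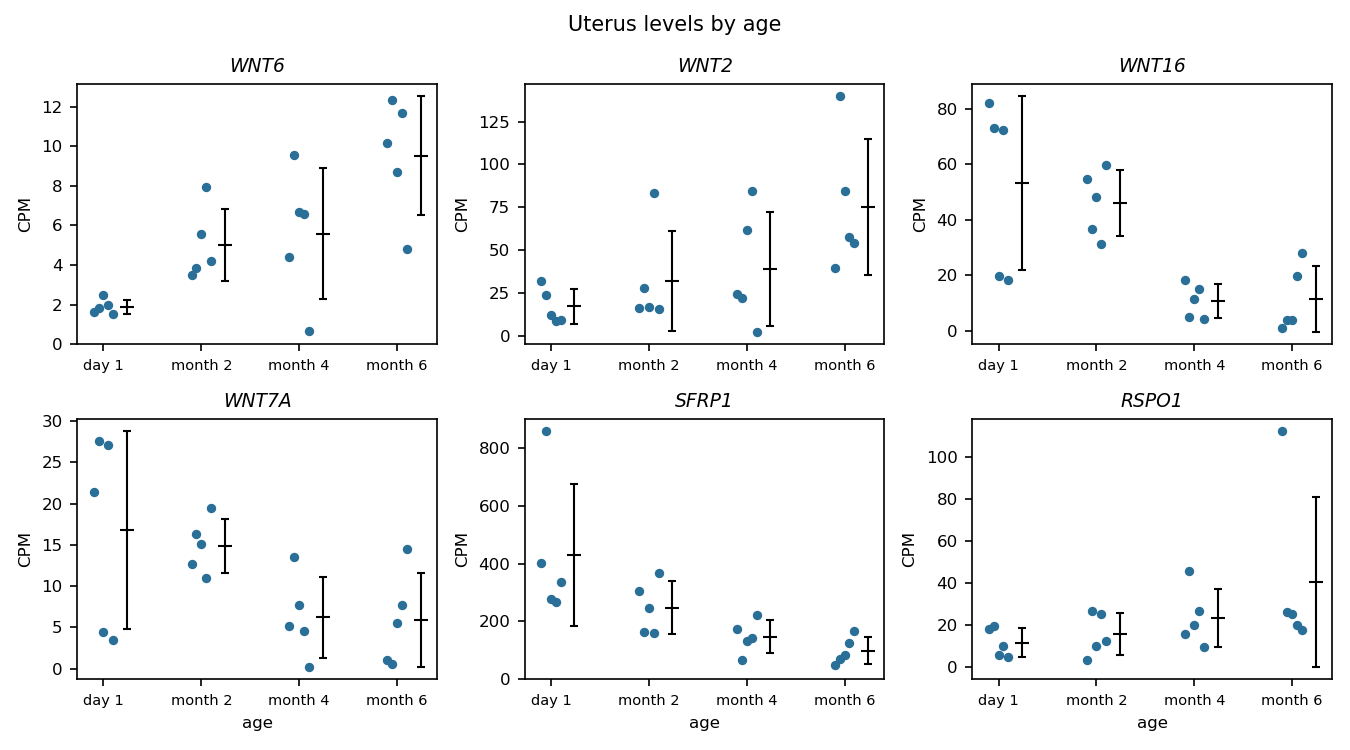
Level in CPM of WNT6, WNT2, WNT16, WNT7A, SFRP1 and RSPO1 in each of the 5 uterus libraries per age, with the mean and SD beside the points. WNT6 lies at 1.55 to 2.47 CPM at day 1 and at 4.80 to 12.3 CPM at month 6, and SFRP1 at 267 to 860 CPM at day 1 and at 48.5 to 166 CPM at month 6.

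Between neighbouring ages of the uterus no member was called. From day 1 to month 2 the count was 0 of 35 (0.016% of all genes), with 5 members at an unadjusted p under 0.05, where 12.3% of all genes were. From month 2 to month 4 it was 0 (0% of all genes), with 5 at an unadjusted p under 0.05 (6.62% of all genes), and from month 4 to month 6 it was 0 (0% of all genes), with 6 (10.8%). DESeq2 and limma-voom also called none in these 3 steps. In the step from month 2 to month 4, WNT16 differed by -2.08 ± 0.67 on the log2 scale without a call (adjusted p = 0.603), from 54.6, 36.6, 48.4, 31.4 and 59.9 CPM to 18.2, 5.02, 11.5, 15.2 and 4.36 CPM, and no month 4 library reached a month 2 library. SFRP4 had 3.58 ± 1.09 in that step and -2.98 ± 1.06 in the next (adjusted p = 0.586 and 0.369), and without uterus library 5 of month 4 these turned to -0.13 ± 0.51 and 0.74 ± 0.51.

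Within the ovary no member was called in any age comparison. From day 1 to month 6 the count was 0 of 36 (0.0763% of all genes), with 9 members at an unadjusted p under 0.05, where 14.3% of all genes were, and DESeq2 called 3 members (3.33% of all genes) and limma-voom 0 (0.0305%). From day 1 to month 2 it was 0 (0.00508% of all genes), from month 2 to month 4 it was 0 (0%) and from month 4 to month 6 it was 0 (0%), with 2, 2 and 0 members at an unadjusted p under 0.05 (7.56%, 8.9% and 2.64% of all genes) and 0 calls with DESeq2 and limma-voom. RSPO2 averaged 19.9 ± 17.1, 9.24 ± 4.29, 6.61 ± 6.37 and 2.65 ± 1.32 CPM at the 4 ages (SD, n = 5 each). Each month 6 value was below each day 1 value, the closest being 4.6 CPM against 4.63 CPM. The log2 fold change of month 6 over day 1 was -2.83 ± 0.70 (adjusted p = 0.113), and without ovary library 3 of day 1 it was -3.07 ± 0.70 (adjusted p = 0.0338), a call.

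SFRP4 differed in the other direction. Its ovary values were 3, 1.77, 8.02, 1.54 and 1.03 CPM at day 1 and 9.27, 20.7, 35, 5.43 and 3.1 CPM at month 6, where day 1 library 3 alone overlapped with month 6. With all libraries the log2 fold change was 2.21 ± 0.66 (adjusted p = 0.172), and without day 1 library 3 it was 3.08 ± 0.64 (adjusted p = 0.0242), a call. DKK1 held 2.25, 6.66, 0.736, 1.82 and 4.23 CPM at day 1 and 0.387, 0.969, 1.03, 1.1 and 0.78 CPM at month 6 (-1.80 ± 0.60, adjusted p = 0.203, and 0.0417 with DESeq2). SFRP2 held 147, 218, 43.7, 203 and 199 CPM at day 1 and 71.9, 60.4, 123, 81.3 and 72.7 CPM at month 6 (-0.94 ± 0.44, adjusted p = 0.341). Day 1 library 3 was again the low value. Without that library and the luteal library 5 of month 4, SFRP2 was called at -1.17 ± 0.29 (adjusted p = 0.0264) and DKK1 at -2.04 ± 0.57 (adjusted p = 0.0452).

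RSPO3 averaged 34.7 ± 21.1, 42.2 ± 12.1, 55.2 ± 48.7 and 81.8 ± 39.7 CPM in the ovary at the 4 ages (SD, n = 5 each), with 1.32 ± 0.50 on the log2 scale from day 1 to month 6 (adjusted p = 0.239). WNT7A held 5.29, 11.1, 0, 0.76 and 11.4 CPM at day 1 and 0.887, 1.88, 1.01, 0.644 and 1.64 CPM at month 6, with overlap through day 1 libraries 3 and 4 (-2.13 ± 1.07, adjusted p = 0.381). DKK3, FZD2 and WNT9A differed by -0.90 ± 0.37, -0.72 ± 0.30 and 1.00 ± 0.45 (adjusted p = 0.269, 0.275 and 0.311). WNT5A averaged 41.5 ± 17.4 CPM at day 1 and 48.4 ± 25.6 CPM at month 6 (SD, n = 5 each), and its lowest ovary value, 7.73 CPM, was in the luteal library of month 4.

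**Figure D5:**
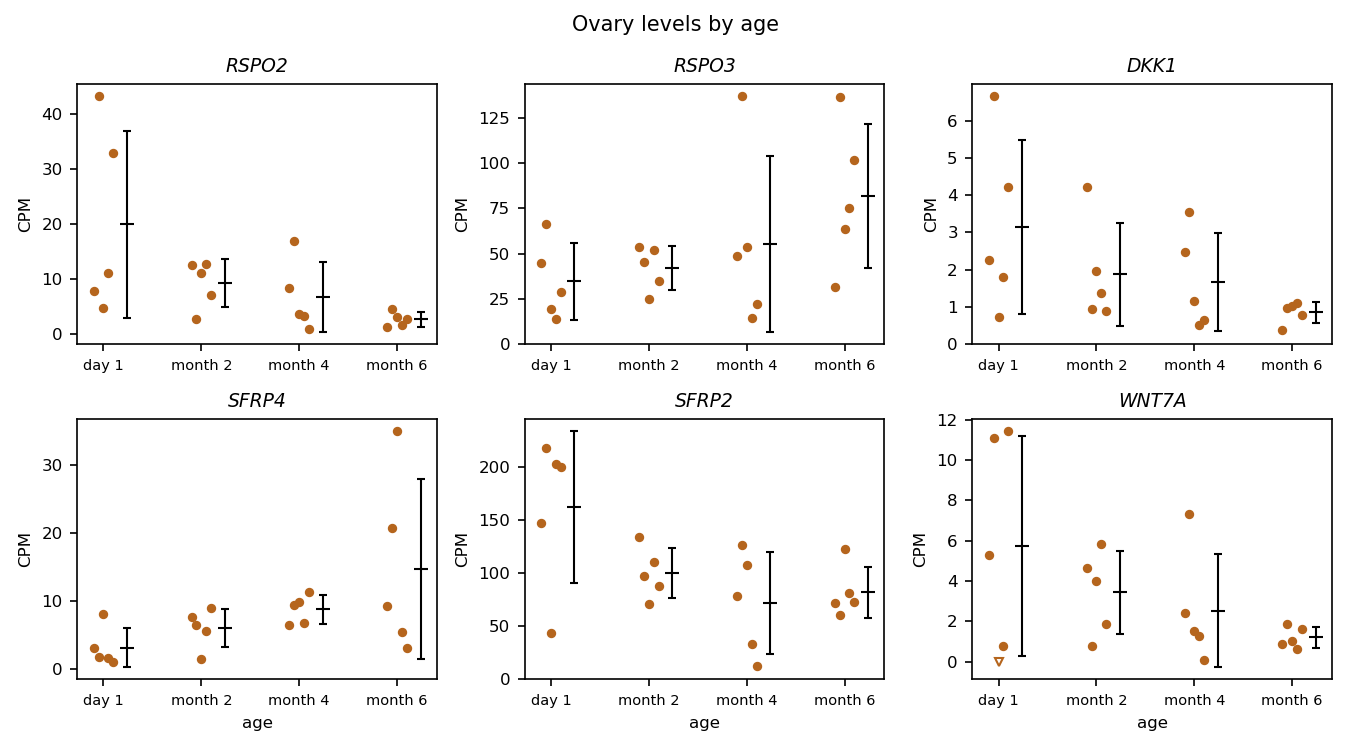
Level in CPM of RSPO2, RSPO3, DKK1, SFRP4, SFRP2 and WNT7A in each of the 5 ovary libraries per age, with the mean and SD beside the points and an open triangle for a library at 0. RSPO2 lies at 4.63 to 43.2 CPM at day 1 and at 1.29 to 4.60 CPM at month 6.

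The difference between the organs in the change from day 1 to month 6 was called for 0 of 37 members (0.234% of all genes), with 7 at an unadjusted p under 0.05 (11.1% of all genes), and DESeq2 and limma-voom also called none. Negative values stand for a lower log2 change in the ovary than in the uterus, whether through a rise in the uterus or a fall in the ovary. WNT6 had -2.02 ± 0.70 (adjusted p = 0.217). Without both libraries that went against their labels it was -2.24 ± 0.55 (adjusted p = 0.0352), a call. SFRP1 had 2.23 ± 0.79, RSPO1 -2.09 ± 0.99, RSPO3 1.71 ± 0.67, WNT2B -1.66 ± 0.61, WNT9A 1.55 ± 0.55 and WNT3 -3.80 ± 1.79, with adjusted p between 0.239 and 0.424.

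Of 48 other genes of the pathway, taken from a list made with earlier results of these data known, 47 were tested. None was called in an age comparison within either organ or in the organ difference in change. Calls between the organs for higher levels in the ovary numbered 3 at day 1, 0 at month 2, 1 at month 4 and 0 at month 6, and for the uterus 6, 11, 7 and 3, beside the shares of all genes given above. LGR5, an R-spondin receptor that marks stem cells in several epithelia, held 77.2, 121, 177, 77.5 and 159.6 CPM in the uterus and 2.23, 1.28, 8.27, 0.927 and 0.508 CPM in the ovary at day 1, without overlap. Its log2 fold change was -5.44 ± 0.76, -5.46 ± 0.77, -4.79 ± 0.75 and -4.82 ± 0.75 at the 4 ages, with adjusted p between 1.01e-05 and 8.16e-05, and each call stood in every alternative. LGR4, a broadly expressed R-spondin receptor, was under the size threshold at every age (log2 fold change -0.82 at day 1). The ligases that R-spondins restrain, ZNRF3 and RNF43, were called higher in the uterus at day 1 (-1.20 ± 0.30 and -2.14 ± 0.60, adjusted p = 0.00403 and 0.00995) and month 2 (-1.26 ± 0.30 and -2.32 ± 0.60, adjusted p = 0.00272 and 0.00577), and ZNRF3 also at month 4 (-1.20 ± 0.30, adjusted p = 0.00662).

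WLS, which carries WNT ligands to the cell surface, averaged 465 ± 207 CPM in the uterus and 142 ± 61.3 CPM in the ovary at day 1 (SD, n = 5 each). It was called higher in the uterus at day 1, month 2 and month 6 (-1.70 ± 0.30, -1.57 ± 0.30 and -1.26 ± 0.30, adjusted p = 0.000141, 0.000323 and 0.00398). SOSTDC1, a secreted inhibitor of WNT and BMP signals, was called higher in the uterus at months 2, 4 and 6 (-2.17 ± 0.74, -3.23 ± 0.77 and -2.66 ± 0.76, adjusted p = 0.0345, 0.00498 and 0.0174). SOST, an LRP-binding inhibitor, the extracellular WNT deacylase NOTUM and the target gene MYC were called higher in the ovary at day 1 (5.35 ± 1.25, 2.43 ± 0.68 and 1.62 ± 0.45, adjusted p = 0.00235, 0.0105 and 0.00939). MYC lost that call without ovary library 4 (adjusted p = 0.253), and MYC and NOTUM lost it without the libraries rich in oviduct markers (adjusted p = 0.0639 and 0.0947). The median level of SOST over the 20 uterus libraries was 0.125 CPM, and 3 of them were at 0. The size of its fold change thus depends on how near-zero counts are handled. FRZB, an SFRP relative, was called higher in the ovary at month 4 (1.32 ± 0.44, adjusted p = 0.0418), but without ovary library 5 the difference was 0.31 ± 0.35 (adjusted p = 0.629). The other calls were PTK7 and CELSR1 at day 1, KREMEN1, CCND1, TCF7L1, LGR6, PRICKLE2 and NKD2 at month 2 and TCF7L1, TCF7L2, LGR6 and PRICKLE1 at month 4, all higher in the uterus. Of the 31 calls on this list, 14 stood in every alternative and 17 were lost in at least 1. The lost calls thus include others than those of MYC, NOTUM and FRZB.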

How the data were processed

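Whole ovary and uterus of female goats were sequenced at 4 ages, with 5 individuals per organ and age. The deposited table holds whole-number read counts per gene that the authors made without normalization, and the submitters' processing notes name RSEM 1.3.0, StringTie 1.3.3b, HISAT2 and fastp 0.23.1, without their roles. No coordinates appear because the build is not given in the sources used, nor are the annotation and strand setting, and overlapping or near-identical genes may share reads. Of 30049 rows, 28910 matched an NCBI gene number in the RefSeq gene table of goat, and the other 1139 were assembled loci that stayed in library totals and tests.

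Counts were tested as deposited with edgeR 4.0.16 (R 4.3.3), with TMM scaling, filterByExpr (minimum count 10) and robust quasi-likelihood fits of the 20 ovary libraries, the 20 uterus libraries or all 40. Age comparisons came from the fit of their organ, and organ comparisons from the fit of all 40. P-values were adjusted by Benjamini-Hochberg over all genes tested. Levels are CPM of the library total. The fitting code was run on simulated counts with known changes and the same spread for every gene, without libraries that go against their labels. That run cannot show how the tests perform at the spread of these data. Labels speak of individuals, so p-values measure the spread between libraries of different animals of 1 farm. That spread also holds any difference in the tissue taken, and the libraries that went against their labels were kept in the main fits. No libraries of a group agreed within sampling noise. Every member called in at least 1 comparison, WNT7A, WNT5A and 12 further members with the highest mean CPM are named with values, 33 in all, and 7 are given by range and count. The members, lists and the rule were chosen with earlier results of these data known. Alternatives were DESeq2 1.42.0, limma-voom (limma 3.58.1), median-ratio scaling, no count filter, only the groups compared, the individual number as a block, and libraries left out singly or together.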

Additional observations from a re-analysis of the deposited data

Results flagged for a closer look

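Each member with at least 1 count in a group was checked for a library whose gap to its nearest neighbour was large for a group of 5 (Dixon's 95% critical value), in 302 groups. There were 38 such values. Normal and independent values would give about 1 in 20 groups, or 15.1. CPM values need not be normal and many flags share a library, so 15.1 is not the chance rate here and no excess is read from it.

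Ovary library 3 at day 1, rich in fat, urothelium and squamous epithelium markers, was far above its group for FZD7 (34.8 CPM, the others at most 21.3), DKK2 (15.8 CPM, the others at most 5.68), SFRP4 (8.02 CPM, the others at most 3), SFRP5 (9.62 CPM, the others at most 3) and WNT10B (2.05 CPM, the others at most 0.471). Uterus library 5 at month 4, rich in elastic tissue, stroma, smooth muscle and endothelium markers, was far above its group for FZD8 (15.9 CPM, the others at most 4.26), SFRP4 (75.7 CPM, the others at most 2.74), SFRP5 (8.56 CPM, the others at most 0.509), WNT11 (6.36 CPM, the others at most 2.88) and RSPO2 (1.49 CPM, the others at most 0.236).

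In uterus library 2 at month 6, 3 members stood out, with WNT11 at 62.6 CPM against at most 4.04 in the others, WNT4 at 41.5 CPM against at most 7.05, and DKK1 at 3.39 CPM against at most 0.345. Its summed uterus markers were 52.3 CPM, the lowest among the uterus libraries apart from library 5 at month 4. Uterus library 1 at month 6 stood out for RSPO1, at 112 CPM against at most 26.0, and for SFRP4, at 5.28 CPM against at most 2.23. Uterus library 2 at day 1 was high for SFRP1 (860 CPM, the others at most 403) and FZD4 (45.3 CPM, the others at most 28.6), and library 3 at day 1 for FZD6 (110 CPM, the others at most 77.3).

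Uterus library 1 at month 4 was high for RSPO3 (102 CPM), WNT4 (4.39 CPM) and WNT9A (3.04 CPM), where the others reached 59, 1.76 and 1.64 CPM. At month 2, uterus library 4 was high for WNT2 (83.6 CPM, the others at most 27.9), library 1 for DKK1 (1.96 CPM, the others at most 0.283) and RSPO2 (0.378 CPM, the others at most 0.0459), and library 3 was low for FZD8 (3.85 CPM, the others at least 5). RSPO2 was at 0 in uterus library 4 at day 1, where the others held at least 0.204 CPM. In the ovary, library 4 at day 1 was high for FZD5 (90.8 CPM, the others at most 26), library 2 at month 2 for WNT7B (1.04 CPM, the others at most 0.27), library 1 at month 6 for FZD6 (66 CPM, the others at most 27.7) and library 4 at month 6 for DKK3 (52.9 CPM, the others at most 28.2).

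Among the ligands of low level, WNT3A was high in ovary library 5 at month 2 (0.665 CPM, the others at most 0.298) and in ovary library 5 at month 4, the luteal library (1.18 CPM, the others at most 0.227). WNT9B was high in ovary library 4 at month 6 (0.391 CPM, the others at 0) and in uterus library 1 at month 4 (0.251 CPM, the others at most 0.0393). WNT8B was high in uterus library 1 at month 2 (0.189 CPM, the others at most 0.0367), and it was above 0 in single libraries of 2 other groups, at 0.0453 CPM in ovary library 2 at month 4 and 0.0526 CPM in uterus library 2 at day 1. WNT1 was at 0.145 CPM in uterus library 2 at month 4 and at 0 in the others.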

How the results depend on the processing

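Of 53 called fold changes of members, 30 kept direction and call in every alternative run for them (18 or 19 each) and 23 lost the call in at least 1, while none changed sign. Of 71 uncalled ones that were followed, 24 gained a call in at least 1 alternative. The number of members called in the ovary between day 1 and month 6 was 0 (0.0763% of all genes), and it was 3 with DESeq2 (3.33%), 2 without both libraries that went against their labels (1.62%), 4 when the luteal library was left out as well (4.31%), and 0 to 2 when single libraries were left out, with 2 without ovary library 3 of day 1 (1.62%). In the uterus over the same span it was 2 (1.42% of all genes), and it was 5 with DESeq2 (5.03%), 1 in a fit of only the 2 groups (0.454%), 0 without the libraries rich in oviduct and ciliated cell markers (0.516%), and 2 without any single library. For ovary against uterus at month 4 it was 11 (11.1% of all genes), and it was 4 in a fit of only the month 4 libraries (3.55%), 7 without the libraries rich in oviduct and ciliated cell markers (8.38%), and 7 to 14 without single libraries, the lowest without ovary library 4 and the highest without uterus library 5. The organ difference in change went from 0 (0.234% of all genes) to 1 without both libraries that went against their labels (0.997%), and to 1 without those and the luteal library (1.48%). The cause of these shifts was not tested.

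SFRP4 in the uterus reversed without both libraries that went against their labels, to -0.13 from month 2 to month 4 (-0.13 to 3.89 without single libraries) and to 0.74 from month 4 to month 6 (-3.45 to 0.74). WNT11 reversed without uterus library 2 of month 6, to -0.16 from month 4 to month 6 (-0.16 to 2.75 without single libraries) and to 0.69 between the organs at month 6 (-1.9996 to 0.69).

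Individual numbers are shared between the groups, and the labels do not say whether the same goat gave both organs. Ovary and uterus libraries of the same number and age deviated together with a correlation over 0.1 in 9 of 20 pairs (-0.16 to 0.31). Of 20 ovary libraries, 8 matched best the uterus library of their own number, each out of 5 of its age. These values do not settle whether the numbers are pairs, and the main fits took all libraries as independent. As a replicate block, the number joined ovary and uterus libraries of the same age in the fit of both organs. In the fit of a single organ it joined libraries of different ages, which the labels do not say share an animal. With the number as a block the counts between organs were 14, 13, 11 and 9 from day 1 to month 6, that of the uterus from day 1 to month 6 was 2, and all others were 0. Under it FZD2 and WNT3 at day 1, RSPO1 at month 2, WNT16 at month 4 and WNT16, DKK2 and FZD2 at month 6 were no longer called between the organs (adjusted p from 0.0705 to 0.265), and FZD8 at day 1 and month 4 and FZD6 at month 6 were (adjusted p from 0.033 to 0.0416). Median-ratio scaling moved the median of all genes from -0.10 to -0.13 in the ovary from day 1 to month 2. With 3 counts as a floor, members under about 0.1 CPM cannot be compared between groups at this depth.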
